A study of Mus musculus with 4 samples.

Results

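The Wwtr1 locus was examined peak by peak in single-cell ATAC-seq of old mouse long-term hematopoietic stem cells (LT-HSCs), the cells that maintain all blood lineages over the long term. Every peak that overlapped the Wwtr1 gene (ENSMUSG00000027803.14, GRCm38 chr3:57455649-57575910, minus strand) or the 50000 bp on either side of it was taken, which gave 23 of the 93513 peaks of the table. The labels of the CLCA3A1high and CLCA3A1low LT-HSCs name this table. Both samples came from C57BL/6JRj mice aged 22 to 28 months and were sorted with an antibody to the surface protein CLCA3A1, and each pooled 2500 cells from each of 4 mice. Young (3 to 4 months) and old (22 to 28 months) LT-HSCs, labelled replicate 2, belong to a second table without peak names and were not used here. The 1454 cells of the first table carry 1 of 2 barcode suffixes, called set 1 (818 cells, 13050952 counts) and set 2 (636 cells, 9820094 counts). Which suffix stands for which sample is given by no label, so the sets are described side by side with no group direction. With 1 library per set there is no replicate spread and no p-value, and intervals cover counting error only.

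Wwtr1 encodes TAZ, a transcriptional coactivator without a DNA-binding domain of its own. TAZ and its paralog YAP are the effectors of the Hippo pathway, a kinase cascade in which MST kinases (Stk3, Stk4) with SAV1 activate LATS kinases, and LATS kinases phosphorylate YAP and TAZ so that they stay in the cytoplasm. In the nucleus they bind TEAD factors, which recognise DNA sites containing the letters CATTCC. The assay, ATAC-seq, counts insertions of the Tn5 transposase, which cuts open chromatin at promoters and at enhancers, the latter often lying in introns or far from the gene. A count at an intronic peak of Wwtr1 shows open chromatin there and does not show which gene, if any, the element acts on.

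The peaks were numbered 1 to 23 along the direction of transcription, and distances run from the transcription start at chr3:57575910, positive toward the end of the gene. Peaks 1 to 3 lay upstream. Peak 4, the promoter peak, covered the start and exons 1 and 2. Peaks 5 to 14 lay in intron 2, 15 to 17 in intron 3, 18 and 19 in intron 4, and 20 to 23 downstream of the gene. The bases that carry the observations below are shown 5′ to 3′ on the Wwtr1 strand in GRCm38. They are the 250 bases before the transcription start, which equal the RefSeq entry of the table built on GRCm38.p6 (chr3:57575911-57576160), and the central 300 bases of 3 intronic peaks. Peak 6 (chr3:57555708-57556007) had the largest ratio between the sets among peaks with at least 100 counts. Peak 14 (chr3:57510209-57510508) had the largest ratio of all and was added after its values were seen. Among peaks open in at least 20 cells of each set, peak 18 (chr3:57470736-57471035) had the highest odds ratio with the promoter, by the lower of its values in the sets. Capitals mark any of 7 short words, searched on both strands, that belong to sites of known factor families. The word of the TEAD factors was CATTCC. That of PU.1, a myeloid and lymphoid regulator, was GAGGAA, and that of other ETS factors was CCGGAAG. RUNX factors were given the word TGTGGT, and the factors of the family of Gata2 the word AGATAA. AP-1, the dimer of Fos and Jun proteins, was given TGACTCA. The E-box of basic helix-loop-helix factors was searched as CAGCTG.
Promoter (peak 4): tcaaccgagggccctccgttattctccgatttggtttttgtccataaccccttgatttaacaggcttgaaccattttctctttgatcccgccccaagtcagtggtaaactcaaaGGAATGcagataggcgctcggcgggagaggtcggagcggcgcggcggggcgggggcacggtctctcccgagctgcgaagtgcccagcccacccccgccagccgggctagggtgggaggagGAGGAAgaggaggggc
Peak 6: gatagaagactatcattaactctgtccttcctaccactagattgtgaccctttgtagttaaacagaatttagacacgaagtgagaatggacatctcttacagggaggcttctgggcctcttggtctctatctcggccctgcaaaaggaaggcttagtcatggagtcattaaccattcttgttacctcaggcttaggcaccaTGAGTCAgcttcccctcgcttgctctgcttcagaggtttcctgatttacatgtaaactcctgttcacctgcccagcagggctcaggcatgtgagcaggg
Peak 14: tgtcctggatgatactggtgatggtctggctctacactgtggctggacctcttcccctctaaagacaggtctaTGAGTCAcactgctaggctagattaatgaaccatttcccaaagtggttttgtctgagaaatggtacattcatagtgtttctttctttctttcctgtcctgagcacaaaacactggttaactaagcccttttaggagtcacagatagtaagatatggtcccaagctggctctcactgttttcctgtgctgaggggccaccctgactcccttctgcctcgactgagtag
Peak 18: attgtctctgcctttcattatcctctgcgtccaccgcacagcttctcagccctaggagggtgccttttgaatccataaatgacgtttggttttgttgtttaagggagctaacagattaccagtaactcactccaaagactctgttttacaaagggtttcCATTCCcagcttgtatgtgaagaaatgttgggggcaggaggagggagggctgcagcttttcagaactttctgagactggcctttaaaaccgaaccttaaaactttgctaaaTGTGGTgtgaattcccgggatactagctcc

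The printed promoter held GGAATG, the TEAD word read on the other strand, at base 115 and the PU.1 word at base 235, counted from the first printed base. The TEAD word was found in 12.6% and the PU.1 word in 23.3% of 32851 RefSeq mouse promoter entries over the same 250 bases. Peak 6 held the AP-1 word on the other strand at base 202, and peak 14 held it at base 74. Peak 18 held the TEAD word at base 160 and the RUNX word at base 271. Across the 22 peaks other than the promoter, the TEAD word lay in the 300 bases around the centre of 6 (27.3%), against 14.6% of tested peaks outside promoters. The AP-1 word lay in 4 (18.2%, against 9.91%), namely peaks 6, 8, 14 and 15. The PU.1 word lay in 9 (40.9%, against 38.8%), the RUNX word in 5 (22.7%, against 30.5%), and the Gata2 family word (14.8% of peaks outside promoters) and the E-box (19.9%) in 2 each (9.09%). The ETS word lay in 1 (4.55%, against 2.64%). These 300 bases reach past the ends of narrow peaks, and at peak 21, which is 132 bp wide, the TEAD and PU.1 words lay outside the peak, which leaves 5 and 8 peaks with the word both in these bases and inside the peak. A word match is a description of the letters and not a measured binding site. The promoter peak had a GC content of 57.1% and 5.11 CpG per 100 bp, close to the medians of promoter peaks (55.7% and 4.60), whereas the other 22 peaks had medians of 44.9% and 1.16.

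Most counts lay in the promoter peak and in the introns, and the introns also held 15 of the 23 peaks. In CPM (counts in a peak per 1e+06 counts of the set), the 23 peaks summed to 154.6 in set 1 and 113.8 in set 2, from 2018 and 1118 counts. The promoter peak held 31.8% of these in set 1 and 30.9% in set 2, and the 15 intronic peaks held 58.7% and 60.0%. The upstream peaks held 4.41% and 5.81%, and the downstream peaks 5.05% and 3.22%. A count in at least 1 of the 23 peaks was found in 512 of 818 cells of set 1 (62.6%) and in 309 of 636 cells of set 2 (48.6%).

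**Figure D1:**
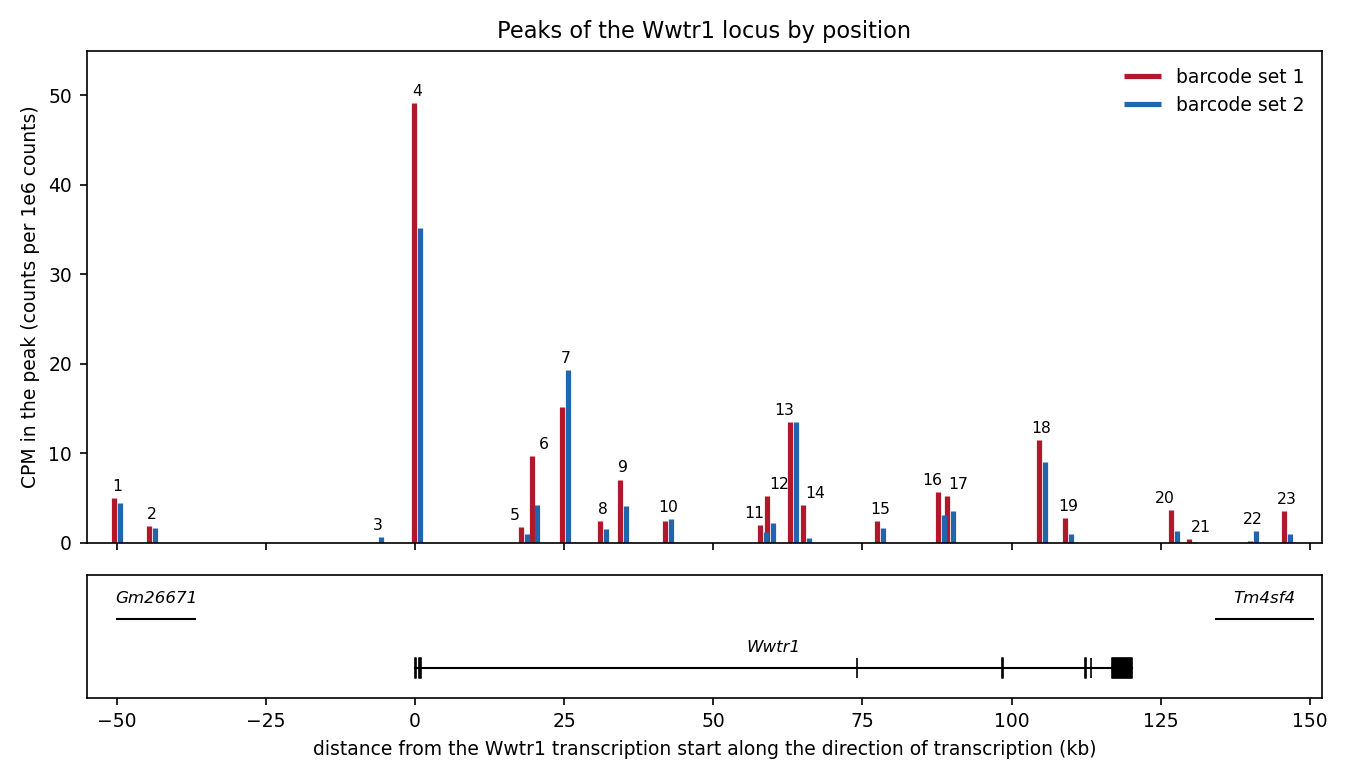
CPM in each of the 23 peaks (vertical axis) against the distance of the peak centre from the Wwtr1 transcription start in kb (horizontal axis), with red bars for set 1, blue bars for set 2 and genes with the exons of Wwtr1 drawn below. Peak 4 at the promoter is the highest in both sets (49.2 and 35.2 CPM), followed by peak 7 in intron 2 (15.2 and 19.2 CPM).

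The promoter peak (chr3:57574044-57576997, 2954 bp) had 642 counts in set 1 and 346 in set 2, or 49.2 and 35.2 CPM. It had more counts than 71.9% of 16120 tested promoter peaks, whose median was 26.1 CPM. This rank takes no account of length, and the median width of promoter peaks was 1517 bp. Cells with a count numbered 235 in set 1 (28.7%, 95% Clopper-Pearson interval 25.6 to 32.0%) and 127 in set 2 (20.0%, 16.9 to 23.3%). Such shares depend on the counts per cell, whose median was 13358.5 in set 1 and 12755 in set 2. After thinning of every cell to 4899 counts the shares were 17.1% and 12.9%. The log2 ratio of CPM, set 1 over set 2, was 0.48 (0.21 to 0.75), an interval above 0 with a ratio just under the 0.5 required for a call. The nearest peaks outside the window were both promoters. That of Commd2, 25165 bp beyond the upstream end of the window, had 23.6 CPM in set 1 and 28.5 in set 2 (log2 ratio -0.27, -0.61 to 0.07), and that of Tm4sf1, 103382 bp beyond the downstream end, had 3 counts and 1 count.

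Intron 2, the longest intron, held 10 peaks from 18310 to 65552 bp after the start. Peak 7 was the strongest, with 198 counts in set 1 and 189 in set 2, or 15.2 and 19.2 CPM. It had more counts than 90.6% of tested peaks outside promoters, at a width of 943 bp beside a median of 479 bp for such peaks. It was open in 90 cells of set 1 (11.0%, 8.94 to 13.4%) and 78 of set 2 (12.3%, 9.82 to 15.1%), and its log2 ratio of -0.34 (-0.73 to 0.10) was the lowest of the 20 peaks with at least 20 counts. Per length, peak 7 had 17.9 CPM per kb over both sets, above the 14.6 of the promoter peak.

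Peak 13 (chr3:57511874-57513059, 1186 bp, 63444 bp from the start) came next, with 176 and 132 counts, or 13.5 and 13.4 CPM. It was open in 75 cells of set 1 (9.17%, 7.28 to 11.4%) and 57 of set 2 (8.96%, 6.86 to 11.5%). Its level was thus nearly equal in the sets, with a log2 ratio of 0.005 (-0.40 to 0.53).

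The next tested peak after it, peak 14 (chr3:57510118-57510599, 482 bp), differed most between the sets. It had 55 counts in set 1 and 5 in set 2, or 4.21 and 0.51 CPM, a log2 ratio of 3.05 (1.15 to 4.60). The counts came from 29 cells of set 1 (3.55%, 2.39 to 5.05%) and 3 cells of set 2 (0.47%, 0.097 to 1.37%), with at most 4 counts in 1 cell. The ratio was 1.79 when 1 CPM was added to both sets and 3.43 after thinning. The centres of peaks 13 and 14, with nearly equal levels in the sets in the first and the largest ratio in the second, lay 2108 bp apart.

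Peaks 6, 9 and 12 of intron 2 were also higher in set 1. Peak 6 (chr3:57555544-57556172, 629 bp) had 126 and 41 counts, or 9.65 and 4.18 CPM, a log2 ratio of 1.21 (0.57 to 2.07). It was open in 64 cells of set 1 (7.82%) and 19 of set 2 (2.99%). Peak 9 (chr3:57540539-57541675, 1137 bp) had 92 and 40 counts, or 7.05 and 4.07 CPM (0.79, 0.05 to 1.63). Peak 12 (chr3:57516116-57516626, 511 bp) had 68 and 22 counts, or 5.21 and 2.24 CPM (1.22, 0.28 to 2.24). The lower bound for peak 9 lay close to 0, and those for peaks 6 and 12 did not.

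The remaining peaks of intron 2 had few counts. Peak 5 (chr3:57557474-57557727) had 23 and 10 counts, peak 8 (chr3:57544253-57544646) 31 and 15, peak 10 (chr3:57533268-57533704) 31 and 26, and peak 11 (chr3:57517391-57517645) 26 and 12. Their log2 ratios of 0.79, 0.64, -0.16 and 0.71 had intervals that included 0. Each was open in 22 to 32 cells of both sets together.

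Introns 3 and 4 held 5 peaks, 2 of which were higher in set 1. In intron 3, peak 16 (chr3:57487361-57488099) had 74 and 30 counts, or 5.67 and 3.05 CPM, a log2 ratio of 0.89 (0.06 to 1.81). Its neighbour peak 17 (chr3:57485946-57486666) had 68 and 35 counts, or 5.21 and 3.56 CPM (0.55, -0.38 to 1.31), and peak 15 (chr3:57497747-57498119) had 31 and 16 counts (0.54, -0.63 to 1.93). Neither of these passed, since their intervals included 0.

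In intron 4, peak 18 (chr3:57470149-57471622, 1474 bp, 105025 bp from the start) was the third strongest outside the promoter, with 150 and 89 counts, or 11.5 and 9.06 CPM (0.34, -0.20 to 0.88). It was open in 70 cells of set 1 (8.56%) and 38 of set 2 (5.97%). Peak 19 (chr3:57466320-57466667) had 36 and 9 counts, or 2.76 and 0.92 CPM, and was higher in set 1 (1.59, 0.05 to 3.00). Its lower bound lay close to 0.

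The flanks held 7 peaks. Upstream, peak 1 (chr3:57625586-57626117) covered the start of Gm26671, a long noncoding RNA gene on the same strand, with 65 and 43 counts, or 4.98 and 4.38 CPM (0.19, -0.61 to 0.92). Peak 2 (chr3:57619752-57620072), within Gm26671, had 24 and 16 counts (0.17, -1.08 to 1.62). Peak 3 (chr3:57581862-57582229), centred at -6135 bp, had 6 counts in 3 cells of set 2 and none in set 1, where 0 of 818 cells allows a share of up to 0.37% by the limit of 3 counts and 0.45% by the exact interval.

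Downstream, peak 20 (chr3:57448447-57448853) had 48 and 13 counts, or 3.68 and 1.32 CPM, and was higher in set 1 (1.47, 0.11 to 2.38). Peak 23 (chr3:57429465-57429928) lay inside Tm4sf4, a tetraspanin-like membrane protein gene on the opposite strand, with 46 and 9 counts, or 3.52 and 0.92 CPM (1.94, 0.52 to 3.38). Peak 21 (chr3:57445656-57445787), with 5 counts and 1 count, and peak 22 (chr3:57435382-57435634), also in Tm4sf4, with 3 and 13 counts, were below the 20 counts required. Peak 22 and peak 3 were the members with more counts in set 2 despite its smaller total.

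**Figure D2:**
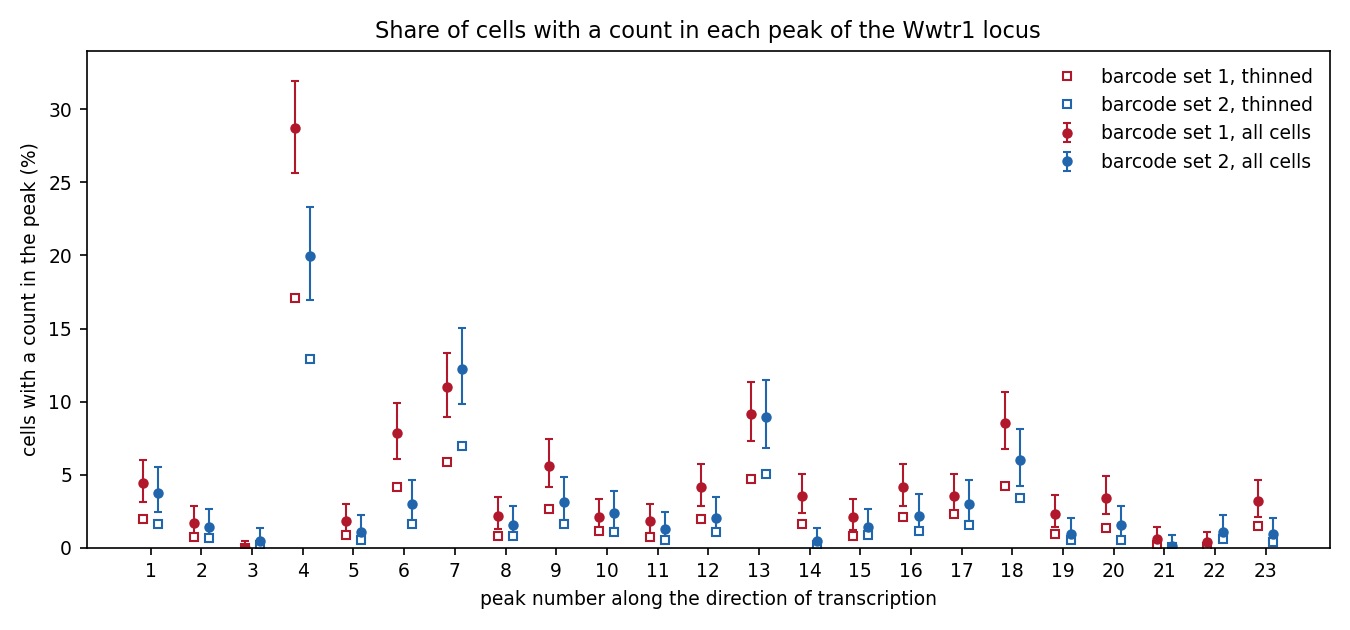
Percent of cells with a count (vertical axis) in each of the 23 peaks in order of transcription (horizontal axis), with filled points and 95% Clopper-Pearson intervals for all cells of set 1 (red) and set 2 (blue), and open squares for cells thinned to 4899 counts. At the promoter, peak 4, the shares are 28.7% and 20.0%, or 17.1% and 12.9% thinned, and the order of the sets is the opposite at peak 7 (11.0% and 12.3%).

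Of the 20 peaks with at least 20 counts, 8 were higher in set 1 (a log2 ratio of at least 0.5 with an interval above 0) and 0 were lower. Over all 79625 tested peaks, 12.0% were higher and 13.5% lower in set 1. Among peaks outside promoters with 33 to 387 counts, the range of the tested members other than the promoter, 13.8% were higher and 16.0% lower. The median log2 ratio of the 20 members was 0.67, against 0.02 over all tested peaks, and 18 of the 20 were above 0. With thinned cells 15 of the 20 were above 0: peaks 2, 8, 13 and 15 went below 0 (to -0.05, -0.15, -0.04 and -0.21), peak 10 went above it (to 0.28), and the ratio of peak 19 was 0.67. As a description of other loci, the same window was drawn around each of 8342 protein-coding genes with at least 10 tested peaks. The median locus had 7.69% of its peaks higher in set 1 and the 95th percentile was 27.3%, beside 40% at Wwtr1, and 0.77% of loci reached that share. Nearby windows share peaks, so these loci are not independent. The shares of loci hold for these calls only. With each peak counted once per cell, 4 of the 20 members were higher in set 1, and the other loci were not compared in that setting.

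By level, 7 of the 8 calls lay between 50 and 199 counts. Of the 6 members with 20 to 49 counts, 1 was higher in set 1 (median log2 ratio 0.67). Of the 5 members with 50 to 99 counts, 4 were higher in set 1 (median log2 ratio 1.47), and of the 5 with 100 to 199 counts, 3 were higher (median 0.79). None of the 3 with 200 to 399 counts (peaks 7, 13 and 18) was higher (median 0.005), nor was the promoter. The share of peaks outside promoters that were higher in set 1 was 8.08%, 12.3%, 15.8% and 18.7% in these 4 ranges. Summed over peaks, the introns had 90.8 and 68.3 CPM, a log2 ratio of 0.41 (0.26 to 0.63), and the downstream peaks 7.82 and 3.67 CPM (1.09, 0.22 to 1.59). The upstream peaks had 6.82 and 6.62 CPM (0.04, -0.62 to 0.65). The intervals of the 8 calls used fragments, in which the double cuts of a fragment are joined. With each peak counted once per cell, that is scored as open or not, there remained 4 peaks higher in set 1. All of them were among the 8 (peaks 6, 12, 14 and 23), and in this setting 10.5% of all peaks were higher and 11.4% lower.

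**Figure D3:**
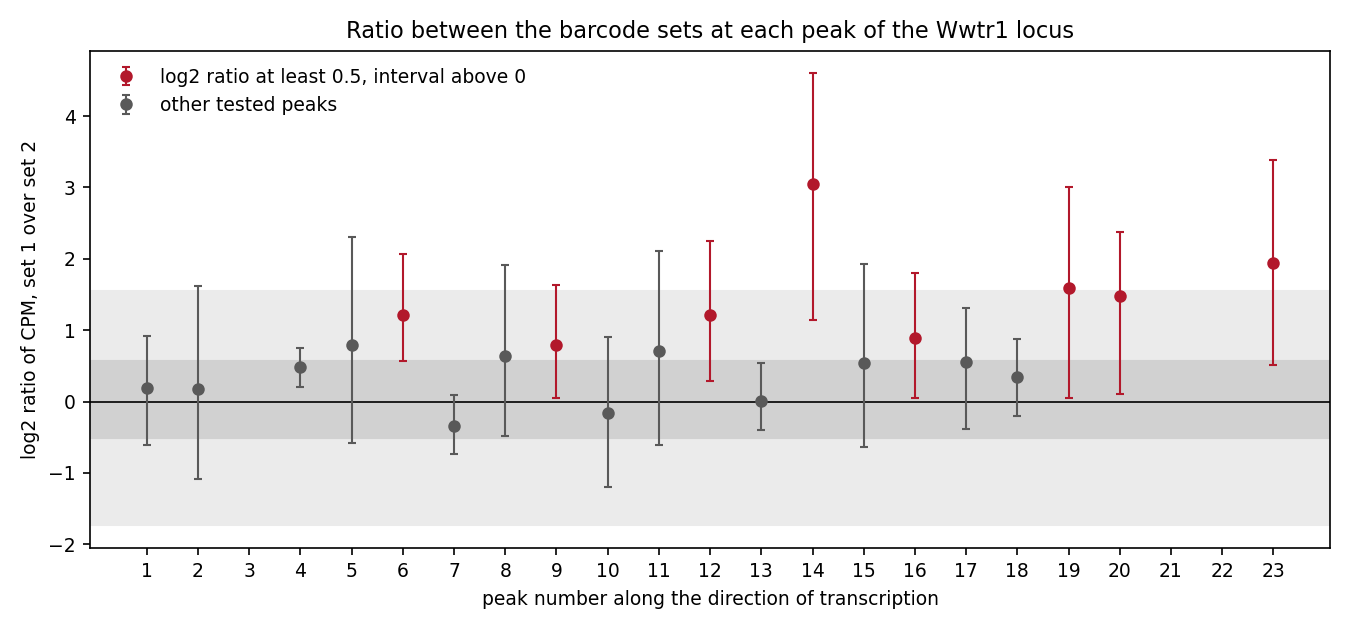
Log2 ratio of CPM, set 1 over set 2 (vertical axis), with 95% counting intervals for the 20 tested peaks in order of transcription (horizontal axis). Red points are the 8 peaks higher in set 1, and the dark and light bands give the quartiles (-0.51 to 0.56) and the 5th to 95th percentile (-1.73 to 1.55) of 52264 peaks outside promoters of like counts. Peaks 14, 19 and 23 (3.05, 1.59 and 1.94) lie above the light band.

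Co-accessibility of each peak with the promoter peak was then described as the odds ratio, over cells, of a count in both. Cells with a promoter count were deeper, at a median of 17585 counts (set 1) and 17979 counts (set 2), and cells without one had medians of 11421 and 12088, so cells were compared within 10 depth bins of each set. Peaks 1, 7, 9, 13 and 18 had a count in at least 20 cells of each set. Their median odds ratio was 1.08 in set 1 and 1.12 in set 2, and 0 of the 5 reached 1.5 in both sets. That level was reached by 6.09% of peaks outside promoters near any promoter, and by 2.57% of such peaks on other chromosomes paired with the Wwtr1 promoter. Cells are not replicates, so these values carry no test.

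The strong intronic peaks 7 and 13 had odds ratios inside the 5th to 95th percentile of peaks near any promoter. These percentiles were 0.57 and 2.10 in set 1 and 0.53 and 2.37 in set 2, around medians of 1.13 and 1.16. For peak 7, 32 of 235 promoter-open cells and 58 of 583 others had a count in set 1, and 22 of 127 and 56 of 509 in set 2, with odds ratios of 1.02 and 1.2. For peak 13 the odds ratios were 0.83 and 0.92, for peak 9 they were 1.08 and 1.12, and for peak 1 they were 1.17 and 0.95. With thinned cells peak 1 had 0.69 and 1.89, which turned the order of the sets, and peak 9 had 1.08 and 1.89. The values before thinning lay inside the 5th to 95th percentile of the Wwtr1 promoter paired with other chromosomes, which were 0.58 and 1.73 (set 1) and 0.54 and 2.09 (set 2).

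Peak 18 in intron 4 stood apart in set 2. There 19 of 127 promoter-open cells (15.0%) and 19 of 509 others (3.73%) had a count, an odds ratio of 3.79 beside that 95th percentile of 2.09. In set 1 it was open in 30 of 235 (12.8%) and 40 of 583 (6.86%), an odds ratio of 1.34, which became 0.88 when cells were thinned, while that of set 2 became 2.57. Over both sets jointly the odds ratio was 1.92, and peak 18 was open in 13.5% of cells with a promoter count and 5.40% of the others.

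With both sets joined, 19 peaks could be compared, 12 of which had an odds ratio above 1. The median was 1.09 and the range 0.66 to 2.10, beside a median of 1.07 for the Wwtr1 promoter with 47571 peaks of other chromosomes and 1.14 for near peaks of promoters open in a similar number of cells. The value reached 1.5 at 4 peaks (peaks 10, 11, 18 and 20, at 1.61, 2.10, 1.92 and 1.91), against 14.2% of the former pairs and 18.3% of the latter. The 95th percentile of the latter was 2.00, and peak 11 alone lay above it. Peaks 10 and 11 rested on 13 and 11 cells with both counts. The peak with the largest ratio between the sets, peak 14, had the lowest odds ratio, 0.66, from 9 cells with both.

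A count in any of the other 22 peaks was found in 60.9% of promoter-open cells and 47.5% of the others in set 1 (odds ratio 1.04), and in 56.7% and 35.8% in set 2 (1.73). For promoters open in a similar number of cells the medians were 1.13 and 1.14, with 5th to 95th percentiles of 0.77 to 1.66 and 0.71 to 1.77. Most cells had counts in few members: 171 cells of set 1 (20.9%) and 84 of set 2 (13.2%) had 2 or more of the 22 peaks open, and the most in 1 cell was 8 and 6. Pairs of members without the promoter had a median joint odds ratio of 1.2 over 171 pairs, with a median of 2 shared cells per pair.

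**Figure D4:**
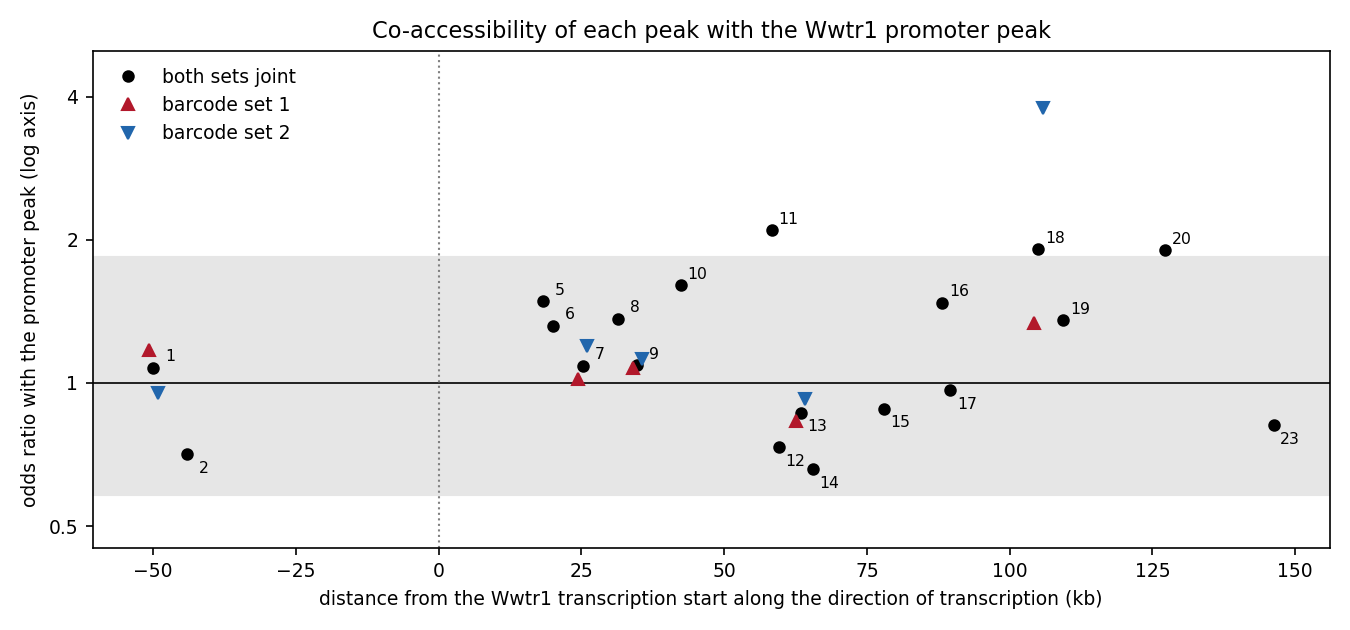
Odds ratio of a count in a peak and in the promoter peak over cells (vertical axis, log scale) against the distance from the Wwtr1 transcription start in kb (horizontal axis), for both sets joined (black, 19 peaks) and for each set where a peak was open in at least 20 cells of each (red triangles set 1, blue triangles set 2). The gray band is the 5th to 95th percentile (0.58 to 1.84) of the Wwtr1 promoter with 47571 peaks of other chromosomes, and peaks 11, 18 and 20 lie above it. Only peak 11 lies above the 95th percentile (2.00) of near peaks of promoters open in a similar number of cells.

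Of 14216 promoters compared, the highest odds ratios with the Wwtr1 promoter in set 1 were at Bmpr1b (3.56), Ltbp4 (3.28), Car4 (3.12), Prickle3 (3.12) and Acsf3 (3.04). These promoters were open in few cells of set 1 (40, 22, 25, 32 and 34). Of those cells, 25, 14, 15, 19 and 23 also had a count at the Wwtr1 promoter. Bmpr1b encodes a BMP receptor, Ltbp4 a TGF-beta binding protein of the matrix and Car4 a carbonic anhydrase. Their odds ratios in set 2, which was not used to choose them, were 1.57, 0.66, 2.27, 0.80 and 1.86, where the median of all promoters was 1.03 and the 95th percentile 1.70. Car4 and Acsf3 were above that percentile and Ltbp4 and Prickle3 were below the median. Joint counts in set 2 numbered 5 to 13 cells.

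The promoters of the other Hippo pathway genes were described in the same way. Of 24 genes, 23 had a promoter peak, 4 were higher in set 1 and 0 were lower, with a median log2 ratio of 0.15, against 6.85% higher and 5.55% lower and a median of 0.01 over tested promoter peaks. Amotl2, an angiomotin-like protein that binds YAP and TAZ, had 53.7 and 22.3 CPM (1.27, 0.97 to 1.60). Ptpn14, a phosphatase that binds YAP, had 36.9 and 20.3 CPM (0.86, 0.55 to 1.24). Tead2 had 16.7 and 9.16 CPM (0.87, 0.34 to 1.37), and the scaffold Sav1 had 23.7 and 14.0 CPM (0.76, 0.37 to 1.21).

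Yap1, the paralog of Wwtr1, had 16.1 and 14.5 CPM (0.15, -0.26 to 0.62). The other TEAD genes had log2 ratios of 0.31 (Tead1, -0.24 to 0.85), 0.39 (Tead3, 0.09 to 0.76) and 0.44 (Tead4, 0.005 to 0.97). The intervals of Tead3 and Tead4 lay above 0, but none of these ratios was past the threshold. Among the kinases, Lats1 had -0.05, Lats2 -0.37 (-0.67 to -0.08), Stk3 0.14 and Stk4 0.05. The interval of Lats2 lay below 0, but its ratio was smaller in size than the 0.5 required for a call. The TEAD target genes Ctgf and Cyr61, named Ccn2 and Ccn1 in the annotation, had log2 ratios of -0.55 (-1.22 to 0.24) and 0.45 (0.03 to 0.87), and neither was called. Ankrd1, another target, had no promoter peak.

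The labelled cell type was checked at promoters of marker genes. Of the stem cell genes, Mecom had 104.7 and 92.6 CPM, Kit 68.6 and 60.3, Hlf 45.2 and 43.0, Procr 11.9 and 6.92, Tek 11.2 and 9.47 and Slamf1 5.21 and 4.28, of which Procr was higher in set 1. Ly6a had no promoter peak. Of the B cell genes, Pax5 had 30.1 and 29.2 CPM, Ebf1 21.0 and 14.6 and Cd79a 0 and 0.41, of which Ebf1 was higher in set 1. Sums were 29.7 and 39.3 CPM for Cd3d, the only T cell gene of 3 with a promoter peak, and 44.1 and 43.1 for 3 of 5 granulocyte and monocyte genes. Of these, Mpo had 1.38 and 3.67 and was lower in set 1 (-1.41, -2.54 to -0.22), and Csf1r had 0.92 and 2.24. Most of that sum thus came from the remaining gene, and the near equality of the sums does not describe Mpo and Csf1r. The sums were 83.6 and 64.8 CPM for 3 erythroid genes, 132.6 and 119.8 for 4 megakaryocyte genes and 82.0 and 98.4 for 4 endothelial or stromal genes. Among these, Epor was higher in set 1 (0.61, 0.28 to 0.97) and Cdh5 was lower (-0.85, -1.72 to -0.11). Over all tested promoter peaks, 6.85% were higher and 5.55% lower in set 1. Promoters can be open in cells that do not transcribe the gene, and the part of other cells in the Wwtr1 values was not tested. Cells with fewer than 1000 counts numbered 3 in set 1 and 24 in set 2, and no barcode was shared between the sets.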

How the data were processed

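Single-cell ATAC-seq was measured with 10x Genomics reagents in 4 samples, and 1 pooled table was analysed. The authors processed the reads with the Cell Ranger ATAC pipeline (version 1.2.0 and builds GRCm38 and mm10 in the submitters' processing notes) and deposited counts per peak and cell barcode without stated normalization. These deposited counts are cut sites, 88.7% of non-zero entries being even. 1 table without peak names was not used. Counts per cell ran from 224 to 136173 (median 13358.5 in set 1, 12755 in set 2). GENCODE annotation, the GRCm38.p6 genome and RefSeq promoters were used for position and sequence. Promoter peaks were those reaching within 1000 bp of any protein-coding start.

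CPM were counts per 1e+06 counts of a set. Log2 ratios were taken for peaks with at least 20 counts, and their 95% Clopper-Pearson intervals used fragments (the count per cell and peak divided by 2, rounded up). Co-accessibility was a Mantel-Haenszel odds ratio over 10 depth bins per set. Joining both sets, for peaks open in at least 20 cells in all, and the printing of peak 14 were chosen after seeing the data. Shares of cells were also given for cells thinned to 4899 counts, the 10th percentile, which left out 69 and 76 cells. No cell was removed otherwise and no doublet caller was run. Named genes were all peaks in the window, 24 Hippo genes, marker lists and the 5 promoters with the highest odds ratio with that of Wwtr1 in set 1. The members and lists were chosen with earlier results of these data known. Some items of these lists and 1 sequence are not reported here. Scripts were tested on simulated data. Python 3.11.15, numpy 2.4.6, scipy 1.17.1 and pandas 2.3.3 were used.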

Additional observations from a re-analysis of the deposited data

How the results depend on the processing

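All 7 alternative settings of the log2 ratio (counted unit, thinning, deep or shallow cells left out, pseudocount, scaling) kept the promoter between 0.35 and 0.48, the introns between 0.38 and 0.44 and the whole locus between 0.38 and 0.45. Single peaks with a ratio above 0 numbered 15 to 18 of 20. The number of peaks higher in set 1 was 6 to 8 of 14 to 23 tested members under 6 alternatives. It was 4 of 20 with each peak counted once per cell. Over all tested peaks, these settings gave 7.53% to 13.0% higher and 9.31% to 13.7% lower in set 1. The number lower was 1 of 23 with no minimum count (peak 22), where 12.4% of all peaks were lower. It was also 1 of 23 with a window of 100000 bp on either side, which added 3 tested peaks, beside 13.5% of all peaks. The median odds ratio with the promoter was 0.88 in set 1 and 1.89 in set 2 with thinned cells, 1.64 and 1.69 with no depth bins, and 1.31 in set 2 when an open peak needed 2 counts. With no depth bins 2 of the 5 peaks reached 1.5 in both sets, and no share over other peaks is given for that setting. Thinning lowered the promoter share to 17.1% and 12.9% of cells. The cause of these differences was not tested. All tested peaks except peaks 4, 7 and 13 have intervals wider than 1 on the log2 scale. A ratio under 1 in size was thus often not distinguishable from 0 at this depth. No paired analysis was possible because each group has 1 sample and no label pairs a barcode suffix with a sample.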
